A study of Homo sapiens with 9 samples.

Results

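The genes described here are 9 enzymes of asparagine, arginine, proline, alanine, aspartate and cysteine metabolism: ASNS, ASS1, PYCR1, ALDH18A1, GPT2, PCK2, CTH, CBS and GOT1. They were taken by symbol from the 28307 genes of the raw count table. All 9 have a row, and all 9 were among the 15619 genes with enough counts to be tested. SW620, an established line of human colon cancer cells first grown from a lymph node metastasis, is labelled WT in genotype and was kept in suspension on plates coated against attachment. Their defined medium held insulin, basic FGF and EGF. Of the 9 cultures 3 were untreated, 3 received streptomycin (SM) at 120 µM and 3 dihydrostreptomycin (DSM) at 120 µM, each for 48 h, and the libraries of a group are numbered 1 to 3. SM is an aminoglycoside antibiotic that acts on bacterial ribosomes, and DSM differs from it by reduction of the streptose aldehyde to an alcohol. The replicates of a group are called biological, but what libraries of the same number share is not said, and all results come from 1 cell line.

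Most of these enzymes take part in making non-essential amino acids. ASNS makes asparagine from aspartate and glutamine. ASS1 joins citrulline and aspartate, the step that commits citrulline to arginine. ALDH18A1 and PYCR1 are the first and last enzymes on the route from glutamate to proline. GPT2 is the mitochondrial alanine aminotransferase, GOT1 the cytosolic aspartate aminotransferase, and PCK2 the mitochondrial enzyme that makes phosphoenolpyruvate. CBS and CTH carry sulfur from homocysteine to cysteine. Several of these genes, ASNS above all, are known targets of ATF4, the transcription factor that cells make more of when amino acids run short or the endoplasmic reticulum is stressed.

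ATF4 binds, with a C/EBP partner, a composite element whose core can be written TGATGNAA. That core was searched on both strands of RefSeq promoter windows (build GRCh38.p14, 250 bases before to 50 after a start site). Windows were found for 7 of the 9 genes, all but PYCR1 and GPT2. Of these 7, ASNS and GOT1 held a match, in 2 of 11 windows, against 4.46% of all 27305 genes with a window. The 2 matches are shown because ASNS is the best-known target of the element, and capitals mark the 8 matched letters in 30 bases read along the gene's strand.
ASNS: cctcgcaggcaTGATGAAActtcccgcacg
GOT1: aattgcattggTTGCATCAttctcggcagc
The ASNS stretch lies at chr7:97872458-97872487 on the minus strand, and its match begins 68 bases before the start site. The GOT1 stretch lies at chr10:99430804-99430833, also on the minus strand, with the match on the opposite strand beginning 198 bases before the start. ASS1, PCK2, ALDH18A1, CTH and CBS held no such letters in their windows, which says nothing of sites elsewhere.

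The libraries numbered 1 stood apart from the others in all 3 groups, and treatment results are given with and without them. Depth and counting bear on some of the 9 genes. Total counts ranged from 39315662 in SM replicate 2 to 65562227 in untreated replicate 1, and a level is given in CPM, read counts scaled to a common library total. ASNS (chromosome 7, 97851677 to 97928441) had only 110 to 496 counts per library. It overlaps the read-through gene CZ1P-ASNS, which has its own row with 21 to 32 counts. In the GENCODE annotation 72.7% of the exon bases of ASNS are shared with a read-through gene of the same strand, so its reads may have been left out or split, and its level is uncertain. CBS (chromosome 21, 43053191 to 43076873) had 3 to 49 counts, and its near-identical copy CBSL had 0 to 3, so CBS values are uncertain too. PYCR1 shared 29.7% and GOT1 22.3% of exon bases with other annotated genes, partly on the opposite strand, and the strand setting of the counting is not given in the sources used here.

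Per length, the proline enzyme PYCR1 was the most abundant of the 9. In untreated cells it averaged 108 ± 23.7 CPM per kilobase of exon (SD, n = 3). ALDH18A1 at 46.6 ± 2.35, GPT2 at 45.3 ± 11.7 and ASS1 at 35.6 ± 20.8 CPM per kilobase followed, and their ranges over the 3 libraries overlapped. GOT1 at 15.9 ± 0.929 and PCK2 at 13.5 ± 6.59 CPM per kilobase overlapped as well. CTH at 1.84 ± 0.236 and ASNS at 1.67 ± 0.849 CPM per kilobase did not differ beyond their spread, and CBS was lowest at 0.100 ± 0.0806. The wide SDs of ASS1, PCK2, ASNS, GPT2 and CBS came with a low library numbered 1 in each group.

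**Figure D1:**
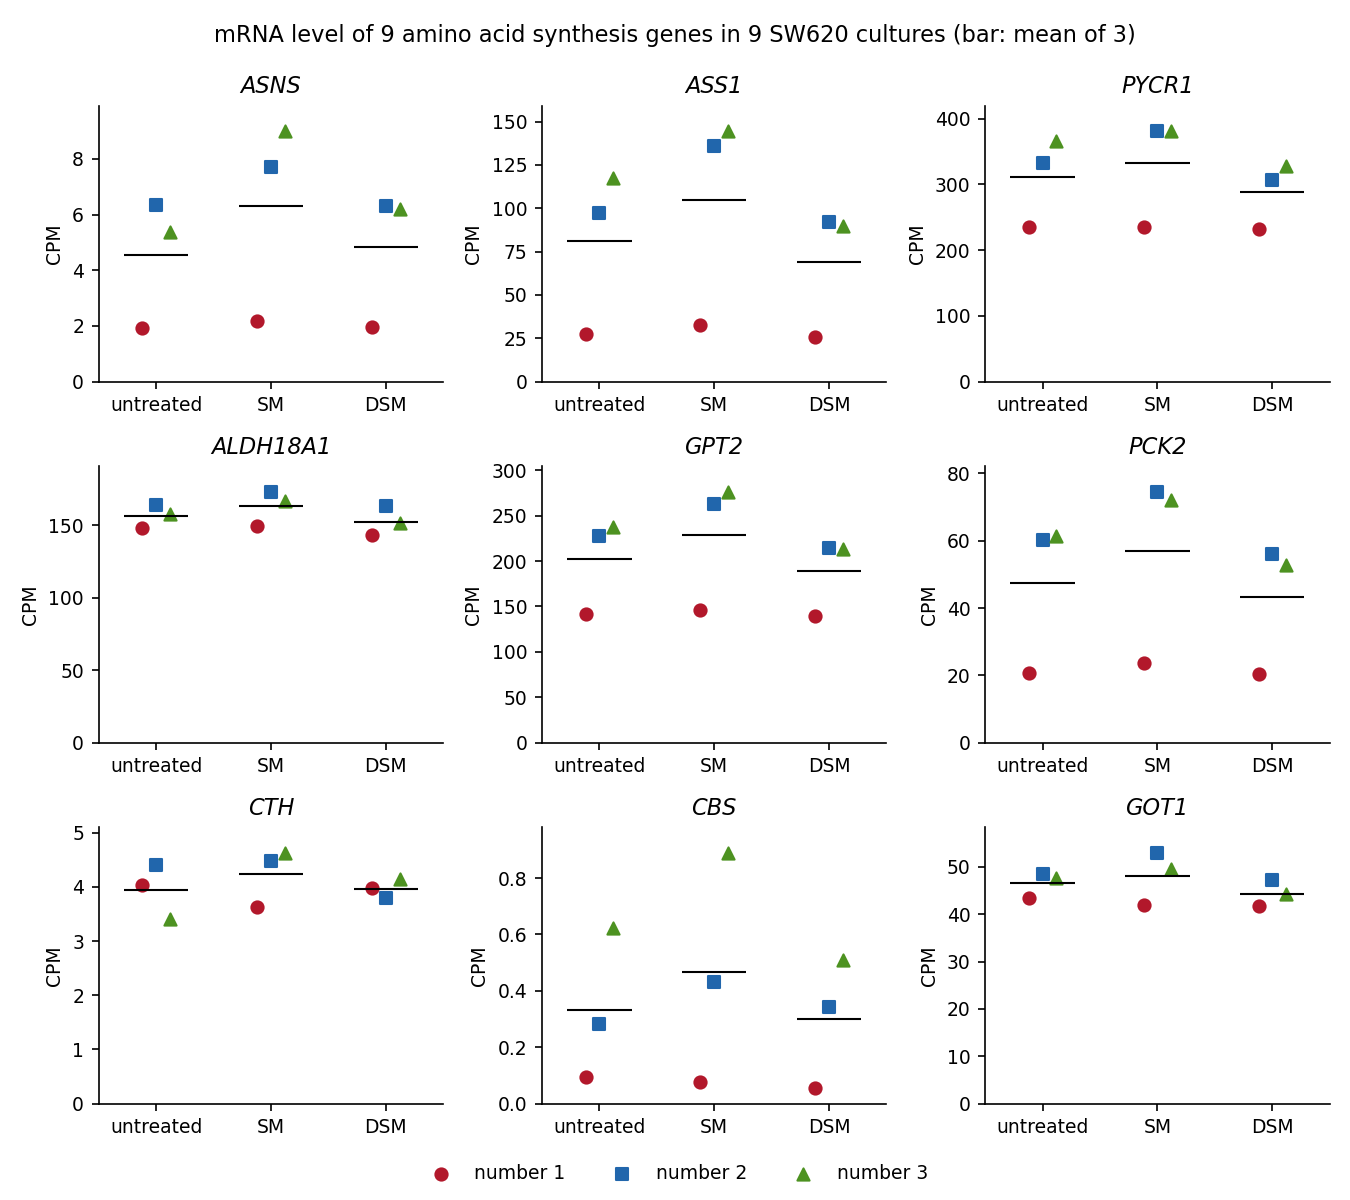
CPM of each of the 9 genes (vertical axis, from 0) in untreated, SM and DSM cultures, with 1 symbol per library by replicate number and a bar at the group mean. In 8 of the 9 panels, all but CTH, the libraries numbered 1 are the lowest of their group.

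The widest differences among the 9 genes were between replicate numbers. In RNA from whole cultures, fewer cells of a type and less RNA per cell cannot be told apart. ASS1 measured 27.6, 97.6 and 118 CPM in untreated libraries 1, 2 and 3. It measured 32.9, 136 and 145 CPM with SM, and 25.7, 92.4 and 89.8 CPM with DSM. In every group the library numbered 1 lay far below the other two, and the highest of the 3 was below the lowest of the other 6. Over the 9 libraries the fitted log2 difference of number 1 from the mean of 2 and 3 was -1.96 (SE 0.05, edgeR adjusted p = 9.62e-15), with treatment held constant. Of the 15619 genes tested, 19 had a lower value. Here and below, p-values for the numbers rest on the 3 libraries of each number as if these were independent. Number 1 is only 1 replicate number, so these p-values do not measure the spread between replicate numbers.

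PCK2, which feeds mitochondrial oxaloacetate into phosphoenolpyruvate, behaved likewise. It measured 20.8, 60.2 and 61.3 CPM in untreated libraries 1, 2 and 3, and 23.8, 74.6 and 72.2 CPM with SM. With DSM the values were 20.5, 56.1 and 52.8 CPM. The libraries numbered 2 and 3 were close to each other and those numbered 1 about equally low in all groups, a log2 difference of -1.53 (SE 0.04, edgeR adjusted p = 3.64e-18).

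ASNS measured 1.94, 6.36 and 5.38 CPM in untreated libraries 1, 2 and 3, and 2.16, 7.70 and 9.01 CPM with SM. With DSM it measured 1.98, 6.30 and 6.19 CPM. The 3 libraries numbered 1 averaged 2.03 ± 0.117 CPM (SD, n = 3) and the 6 others 6.82 ± 1.31 CPM (SD, n = 6, treatments pooled), without overlap. The fitted log2 difference was -1.74 (SE 0.10, edgeR adjusted p = 4.74e-12). The row of CZ1P-ASNS did not show it, at -0.19 (SE 0.25, adjusted p = 0.593).

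The mitochondrial alanine aminotransferase gene GPT2 averaged 142 ± 2.98 CPM in the libraries numbered 1 and 239 ± 25.9 CPM in the others, a log2 difference of -0.74 (SE 0.04). PYCR1 averaged 234 ± 1.00 and 349 ± 31.5 CPM, a log2 difference of -0.57 (SE 0.04). The edgeR adjusted p was 2.92e-13 for GPT2 and 1.64e-11 for PYCR1. The upstream proline enzyme differed less: ALDH18A1 averaged 147 ± 3.24 against 163 ± 7.55 CPM, a log2 difference of -0.14 (SE 0.03, adjusted p = 1.73e-04). GOT1 averaged 42.3 ± 0.940 against 48.4 ± 2.88 CPM, a log2 difference of -0.19 (SE 0.04, adjusted p = 2.38e-04). ALDH18A1 and GOT1 were thus lower by less than PYCR1 and GPT2, and their intervals did not meet those of these genes.

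The transsulfuration enzymes parted from each other. CBS, which condenses homocysteine with serine, had 6, 16 and 38 counts in untreated libraries 1, 2 and 3, then 4, 17 and 49 with SM and 3, 18 and 28 with DSM. The log2 difference of number 1 was -2.65 (95% interval -3.44 to -1.86, edgeR adjusted p = 5.60e-06), on few counts. CTH, which cleaves the product of CBS to cysteine, averaged 3.88 ± 0.217 CPM in the libraries numbered 1 and 4.14 ± 0.466 CPM in the others. Its log2 difference was -0.09 (95% interval -0.29 to 0.12, adjusted p = 0.528), and its libraries overlapped.

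In all, 8 of the 9 genes were called lower in the libraries numbered 1, where 42.0% of all genes tested were called, 20.3% lower and 21.7% higher. In the same 8 genes all 3 libraries numbered 1 lay below the other 6, which held for 15.5% of genes. The median log2 difference of the 9 genes was -0.74, against -0.0045 over all genes tested. An F test of any difference among the 3 numbers, which does not single out number 1, called the same 8, against 40.7% of all genes. Fitted over the 3 groups, numbers 2 and 3 differed little. The log2 difference of 3 from 2 lay between -0.07 and 0.11 for 8 genes, and was 0.92 (SE 0.31, edgeR adjusted p = 0.0999) for CBS. Single groups could differ more and in opposite directions. For ASNS the difference was -0.24 untreated, 0.23 with SM and -0.025 with DSM. For CTH it was -0.37, 0.051 and 0.12. The split of number 1 from 2 and 3 was known from earlier results of these data, so these calls describe it and do not test it anew. With 1 replicate number set against 2 others, the calls also do not show how far replicate numbers differ in general.

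**Figure D2:**
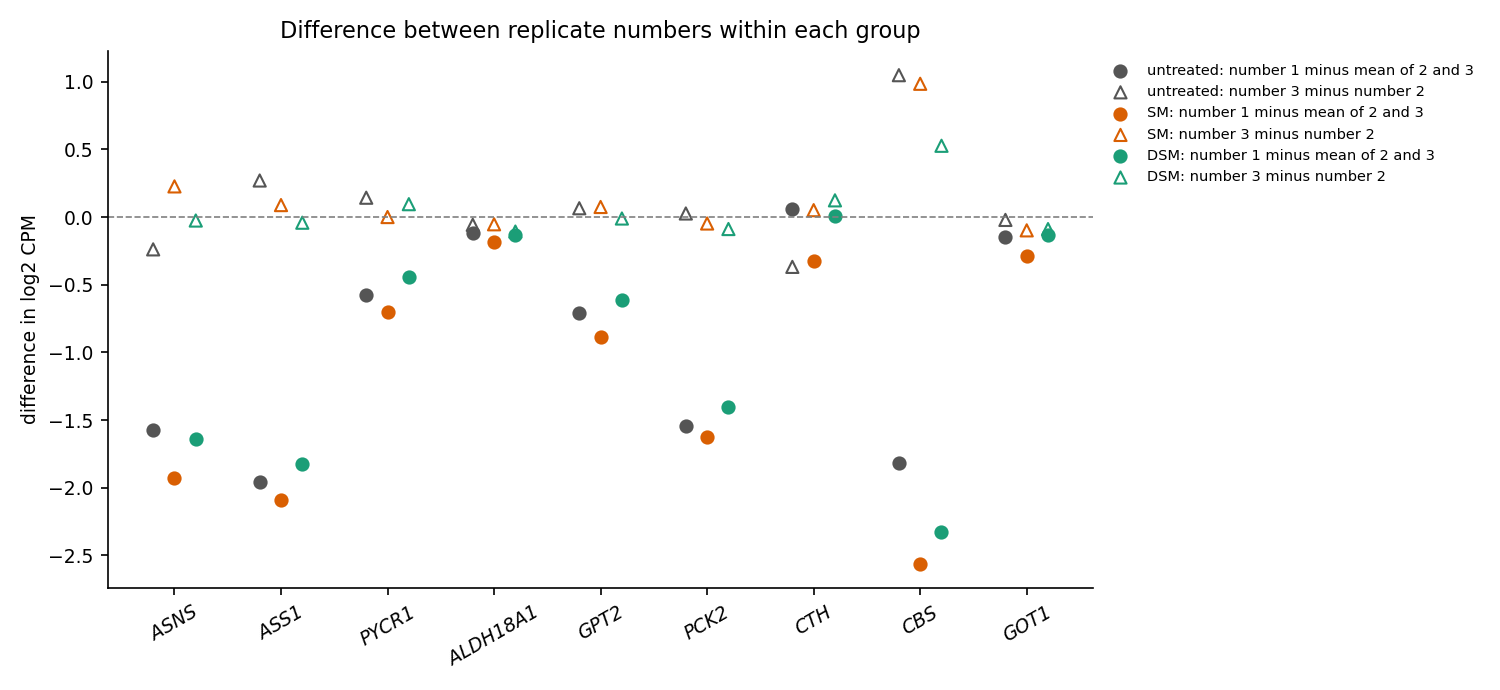
Difference in log2 CPM within each treatment group for each gene (horizontal axis): filled circles give number 1 minus the mean of numbers 2 and 3, open triangles number 3 minus number 2. For ASS1 the circles sit at -1.96, -2.09 and -1.82 in untreated, SM and DSM cultures, while its triangles lie between -0.042 and 0.27.

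Other features of the libraries moved with the number. The summed level of 8 colon epithelial markers was 11866 to 12949 CPM in the libraries numbered 1 and 10153 to 10731 CPM in the others. Most of it was KRT8 (on average 7346 against 5997 CPM) and KRT18 (3860 against 3298 CPM). Of the 7 tested, 6 were called higher in number 1, against 21.7% of all genes. The other, CDX2, was called lower (10.6 against 13.2 CPM), against 20.3%. The 5 fibroblast markers summed to 24.8 to 26.9 against 12.5 to 19.3 CPM, with DCN at 0 in every library. The 4 endothelial markers summed to 4.02 to 4.42 against 1.84 to 2.82 CPM. The 5 leukocyte markers summed to 12.7 to 14.3 against 17.2 to 22.4 CPM, nearly all of it CD68 (13.5 against 19.0 CPM). Total counts overlapped, at 53432282 to 65562227 against 39315662 to 60740641, and the 10 most abundant genes took 5.70% to 5.83% against 5.41% to 5.55% of counts. The part of these features in the low levels of the 9 genes was not tested.

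With SM, 4 of the 9 genes rose when libraries were paired by number: ASNS, ASS1, PCK2 and GPT2, the genes of asparagine, arginine, phosphoenolpyruvate and alanine synthesis. The rises were small, between 1.11-fold and 1.36-fold. Over all genes 2.74% were called, 1.20% higher and 1.54% lower. None of the 9 genes was called lower. All 9 log2 fold changes were positive, as were 7723 of the 15619 tested, with a median of 0.16 against -0.00091 over all genes tested. Not every pair rose. In pair 1 PYCR1 measured 234 CPM with SM against 235 untreated, and GOT1 41.9 against 43.4. CTH measured 3.63 against 4.03 CPM there, and CBS 0.0752 against 0.0933.

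ASNS had the largest of the called rises, a log2 fold change of 0.44 (SE 0.11, edgeR adjusted p = 0.0203). Its differences were 0.15, 0.27 and 0.74 in pairs 1, 2 and 3, so the pair numbered 3 weighed most. The call was lost without untreated replicate 2 (0.52, adjusted p = 0.0555), untreated replicate 3 (0.30, adjusted p = 0.428) or SM replicate 3 (0.27, adjusted p = 0.317), and by DESeq2 (0.42, adjusted p = 0.0561).

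ASS1 rose by 0.35 on the log2 scale (SE 0.05, edgeR adjusted p = 0.00101), with pair differences of 0.25, 0.48 and 0.30. PCK2 rose by 0.25 (SE 0.04, adjusted p = 0.0015), with 0.19, 0.31 and 0.24. Both were higher in 3 of 3 pairs, as were 17.4% of all genes. Without SM replicate 3 the ASS1 rise of 0.33 missed the threshold (adjusted p = 0.0587), while leaving out any 1 library did not end the call of PCK2.

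GPT2 had the weakest call, a log2 fold change of 0.16 (SE 0.04, edgeR adjusted p = 0.0402). Its pair differences were 0.034 in pair 1, 0.21 in pair 2 and 0.22 in pair 3, near nothing where the gene was low. The call was lost without untreated replicate 1 (adjusted p = 0.145), 2 (0.262) or 3 (0.247), without SM replicate 2 (0.187) or 3 (0.295), by limma voom (adjusted p = 0.052) and without robust estimation (adjusted p = 0.0505).

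The remaining 5 genes did not pass. PYCR1 had a log2 fold change of 0.09 (SE 0.04, edgeR adjusted p = 0.319) and passed only without SM replicate 1 (0.15, adjusted p = 0.026). ALDH18A1 and GOT1 had narrow intervals, -0.0079 to 0.12 and -0.04 to 0.13, so a change of the size seen for ASNS lay outside both. For CTH the interval was -0.14 to 0.35 and for CBS -0.25 to 1.15, too wide at their counts to tell a rise like that of ASS1 from none.

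All 4 calls depended on the pairing. In a fit with treatment as the only term 0 of the 9 genes passed in edgeR, and 0.0192% of all genes did. At an unadjusted p under 0.05 it was 2.34% of all genes and again 0 of the 9. The estimates hardly moved, to 0.46 (SE 0.64) for ASNS, 0.37 (SE 0.74) for ASS1, 0.26 (SE 0.59) for PCK2 and 0.17 (SE 0.29) for GPT2, but their SEs then held the spread between numbers. For each of the 9 genes the SM libraries overlapped the untreated ones. When the 3 libraries numbered 1 were left out, the same 4 genes were called, with log2 fold changes of 0.52, 0.39, 0.27 and 0.21 for ASNS, ASS1, PCK2 and GPT2. The fits with libraries left out, this one among them, called 149 to 569 of all genes.

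Whether the SM effect was smaller in the pair numbered 1 was tested as an interaction. The effect in that pair minus that in the others was negative for all 9 genes, from -0.86 (CBS) to -0.069 (ALDH18A1), but 0 of 9 passed in edgeR, DESeq2 or limma voom. Over all genes 0.0128% passed. At an unadjusted p under 0.05 there were 3.56% of all genes and 1 of the 9, GPT2 (-0.18, SE 0.08, edgeR adjusted p = 1.00). For DSM 0 of 9 passed as well, where 0.0128% of all genes did, and 0 of 9 had an unadjusted p under 0.05, where 2.02% did.

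With SM, 2 of the markers used to check the cells fell, where 1.54% of all genes were called lower. Of those tested these were 1 of 7 epithelial and 1 of 3 fibroblast markers, with 0 of 2 leukocyte and 0 of 2 endothelial markers. VIL1, the brush border villin, had a log2 fold change of -0.14 (SE 0.03, edgeR adjusted p = 0.0119). LUM, which encodes the matrix proteoglycan lumican, had one of -0.41 (SE 0.10, adjusted p = 0.0271) and lay between 4.98 and 13.2 CPM in these 6 libraries. The summed epithelial markers stood at 10153 to 11866 CPM with SM and 10512 to 12949 CPM without, and the part of either in the rises of the 4 genes was not tested.

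With DSM at the same dose and time none of the 9 genes was called. With the pairing edgeR called 0 of 15619 genes, 0.00%, and 650 genes, 4.16%, had an unadjusted p under 0.05. DESeq2 and limma voom called 0 of the 9 as well. Without the pairing 0.00% of genes passed and 0.659% had an unadjusted p under 0.05, none of the 9 among them. ASS1 had a log2 fold change of -0.20 (SE 0.05, edgeR adjusted p = 0.999) and was lower than untreated in 3 of 3 pairs, by 0.10, 0.079 and 0.39. PCK2 at -0.12 (95% interval -0.21 to -0.03), PYCR1 at -0.09 (-0.18 to -0.0092) and GPT2 at -0.09 (-0.17 to -0.0033) had, like ASS1, an unadjusted p under 0.05 and did not pass, which made 4 of the 9 genes. In a fit on all genes with at least 1 count, ASS1 was called lower (adjusted p = 0.00401), 1 of 7 genes called there. Without the 3 libraries numbered 1, 0 of the 9 genes passed, and ASS1 had -0.24 (adjusted p = 0.437). The fits with libraries left out, this one among them, called 0 to 1 of all genes.

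With DSM, ASNS had a log2 fold change of 0.08 (95% interval -0.15 to 0.30), CTH one of 0.01 (-0.23 to 0.25), ALDH18A1 one of -0.04 (-0.10 to 0.03) and GOT1 one of -0.07 (-0.16 to 0.02). CBS at -0.15 had an interval of -0.88 to 0.59. In all, 7 of the 9 estimates were negative, and 6 of the 9 genes were lower in 3 of 3 pairs, against 15.1% of all genes.

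**Figure D3:**
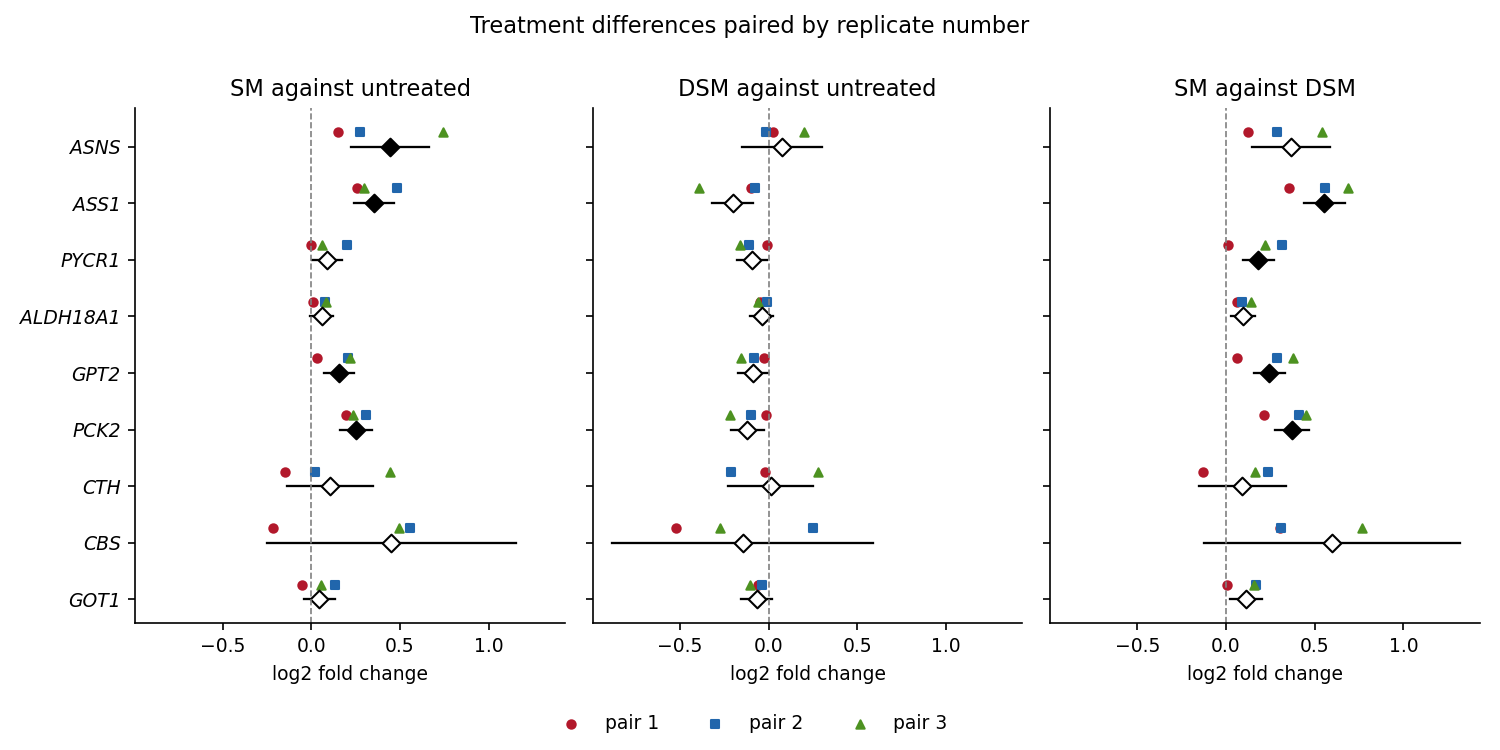
Log2 fold changes of the 9 genes for SM against untreated, DSM against untreated and SM against DSM, from the fit paired by number. Diamonds with 95% intervals are the fitted values, filled where the adjusted p was under 0.05, and small symbols above them are the differences within pairs 1, 2 and 3. ASS1 sits at 0.35, -0.20 and 0.55 in the 3 panels.

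SM and DSM, which differ at the streptose aldehyde, were compared directly at 120 µM and 48 h. ASS1, PCK2, GPT2 and PYCR1 were higher with SM than with DSM, 4 of 9 genes, where 1.73% of all genes were called higher and 2.15% lower. ASS1 differed by 0.55 on the log2 scale (95% interval 0.44 to 0.67, edgeR adjusted p = 9.82e-06), a 1.47-fold higher level, with 0.36, 0.56 and 0.69 in pairs 1, 2 and 3. Only 252 of the genes tested had a higher value. This difference joins a positive value for SM and a negative one for DSM, both against the same untreated libraries. Markers of the cells moved in this comparison too: CDH1, the epithelial cadherin, had -0.27 (SE 0.06), VIL1 -0.14 (SE 0.03) and LUM -0.46 (SE 0.10), 2 of 7 epithelial and 1 of 3 fibroblast markers called lower with SM. The summed epithelial markers stood at 10153 to 11866 CPM with SM and 10355 to 12707 CPM with DSM, the fibroblast markers at 12.5 to 24.8 and 16.3 to 25.8 CPM, and their part in the differences of the 4 genes was not tested.

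PCK2 differed by 0.37 (interval 0.28 to 0.47, edgeR adjusted p = 1.46e-05), with 0.21, 0.41 and 0.45 in the pairs. GPT2 differed by 0.25 (interval 0.16 to 0.33, adjusted p = 8.44e-04), with 0.06, 0.29 and 0.38. PYCR1 differed by 0.18 (interval 0.097 to 0.27, adjusted p = 0.0107), with 0.01, 0.31 and 0.22. In pair 1 the values of PYCR1 with SM and DSM, 234 and 233 CPM, were nearly equal. Its call was lost without SM replicate 2 (adjusted p = 0.0969), SM replicate 3 (0.0962), DSM replicate 2 (0.147) or DSM replicate 3 (0.155).

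The other 5 genes were not shown to differ between the compounds, and their intervals left room for a difference. ASNS had 0.37 (interval 0.15 to 0.59), just short of the threshold (edgeR adjusted p = 0.0538). It passed in limma voom (adjusted p = 0.0444), in the fit on all genes with at least 1 count (0.00759), without SM replicate 1 (0.44, adjusted p = 0.016) and without the 3 libraries numbered 1 (0.43, adjusted p = 0.0209). Without SM replicate 3 the ASNS difference fell to 0.19 and did not pass. ALDH18A1 had 0.10 (0.03 to 0.16) and GOT1 0.11 (0.02 to 0.20), the latter called without SM replicate 1 (0.16, adjusted p = 0.0405). CTH had 0.09 (-0.15 to 0.34) and CBS 0.60 (-0.12 to 1.32). All 9 estimates were positive, 8 of the 9 genes were higher with SM in 3 of 3 pairs against 16.3% of all genes, and their median was 0.25 against -1.4e-05. Without the pairing 0 of 9 passed in edgeR, 0.00% of all genes, and 0 of 9 had an unadjusted p under 0.05, where 2.54% of genes did. The ASS1 difference was then 0.59 (SE 0.74). With the pairing and without the 3 libraries numbered 1, 5 of the 9 genes were called, these 4 and ASNS, with 0.62 for ASS1. The fits with libraries left out, this one among them, called 265 to 846 of all genes.

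Genes around these enzymes were taken from 8 lists, and none of their genes was called for DSM against untreated. The list nearest to the 9 genes held serine and one-carbon enzymes, which supply serine and folate-bound carbon and which ATF4 also drives. All 5 were called lower in the libraries numbered 1, against 20.3% of all genes. PHGDH, the first enzyme of serine synthesis, measured 51.0, 183 and 184 CPM in untreated libraries 1, 2 and 3, a log2 difference of -1.78 (SE 0.03, edgeR adjusted p = 1.11e-21) over all groups. PHGDH at 0.27 (SE 0.04) and MTHFD2 at 0.19 (SE 0.04) rose with SM, 2 of 5, against 1.20% of all genes called higher. PSPH, MTHFD2 and PHGDH were higher with SM than with DSM, 3 of 5, against 1.73% of all genes.

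Of 17 genes of the integrated stress response, the pathway that raises ATF4, 14 were called lower in the libraries numbered 1 and 0 higher, against 20.3% and 21.7% of all genes. The sizes differed widely. EIF2AK1, EIF2AK2, EIF2AK3 and EIF2AK4 averaged 201, 108, 13.6 and 74.1 CPM in these libraries against 205, 124, 14.2 and 71.2 CPM in the others. ATF4 itself had a log2 difference of -0.52 (SE 0.06), CHAC1, which degrades glutathione, -2.27 (SE 0.13), and SESN2, a leucine sensor, -1.41 (SE 0.06). With SM 4 of the 17 rose, against 1.20% of all genes called higher. The rises were 0.48 (SE 0.06) for SESN2, 0.33 (SE 0.08) for CEBPB, 0.27 (SE 0.04) for PPP1R15A and 0.21 (SE 0.05) for CEBPG. CEBPB and CEBPG encode partners of ATF4 on the element shown above. ATF4 mRNA had 0.21 with SM (SE 0.07, edgeR adjusted p = 0.158) and 0.24 for SM against DSM (SE 0.07, adjusted p = 0.0905), and passed neither test. For SM against DSM 6 of the 17 were higher and 0 lower, against 1.73% and 2.15% of all genes.

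Of 9 amino acid carriers tested, 5 were called lower and 2 higher in the libraries numbered 1, against 20.3% and 21.7% of all genes. SLC7A1, the main importer of arginine, was lower there by a log2 difference of -0.57 (SE 0.03), and SLC38A2, which takes up neutral amino acids, was higher by 0.23 (SE 0.04). With SM the arginine importer SLC7A1 rose by 0.19 (SE 0.03, edgeR adjusted p = 0.00201) and the cystine importer SLC7A11 by 0.30 (SE 0.04, adjusted p = 3.82e-05), 2 of 9. Over all genes 1.20% were called higher. SLC7A1, SLC7A11 and SLC3A2, the partner chain of SLC7A11, were higher with SM than with DSM, 3 of 9, against 1.73% of all genes.

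Of the enzymes next to the 9 on the same routes none passed for SM against untreated, where 2.74% of all genes did, so a count of 0 is near that share. These were 11 aspartate and alanine genes, 6 urea cycle and arginine genes, 9 proline and glutamate genes, 10 methionine and transsulfuration genes and 8 pyruvate and phosphoenolpyruvate genes. Their log2 fold changes ran from -1.17 to 0.63, but these ends belonged to ASPA and FBP1, which were near the detection limit. Untreated cells averaged 0.153 CPM of ASPA and 0.201 CPM of FBP1. By list, the median size of the change lay between 0.027 and 0.10, against 0.16 for the 9 genes. GOT2, the mitochondrial partner of GOT1, had a log2 fold change of -0.02 (SE 0.03), and ASL, which splits the product of ASS1 to arginine, one of -0.12 (SE 0.06, edgeR adjusted p = 0.324). PCK1, the cytosolic counterpart of PCK2, was near the detection limit at 0.10 to 0.36 CPM. For SM against DSM 1 of the 9 proline and glutamate genes was called higher, and none in the other neighbour lists. Over all genes 1.73% were called higher in that comparison and 2.15% lower.

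By number these neighbours were called in both directions, as were all genes tested (20.3% lower, 21.7% higher). Lower in the libraries numbered 1 was GLS2, the liver-type glutaminase, at -0.67 (SE 0.05). Higher were GLUL, which makes glutamine, at 0.36 (SE 0.03), ARG2, the mitochondrial arginase, at 0.31 (SE 0.04) and PC, the pyruvate carboxylase that makes oxaloacetate, at 0.31 (SE 0.04). By list, 2 of 11 aspartate and alanine genes, 2 of 6 urea cycle genes, 4 of 9 proline and glutamate genes, 6 of 10 methionine genes and 0 of 8 pyruvate genes were lower. In the same order 2, 3, 4, 0 and 3 were higher.

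**Figure D4:**
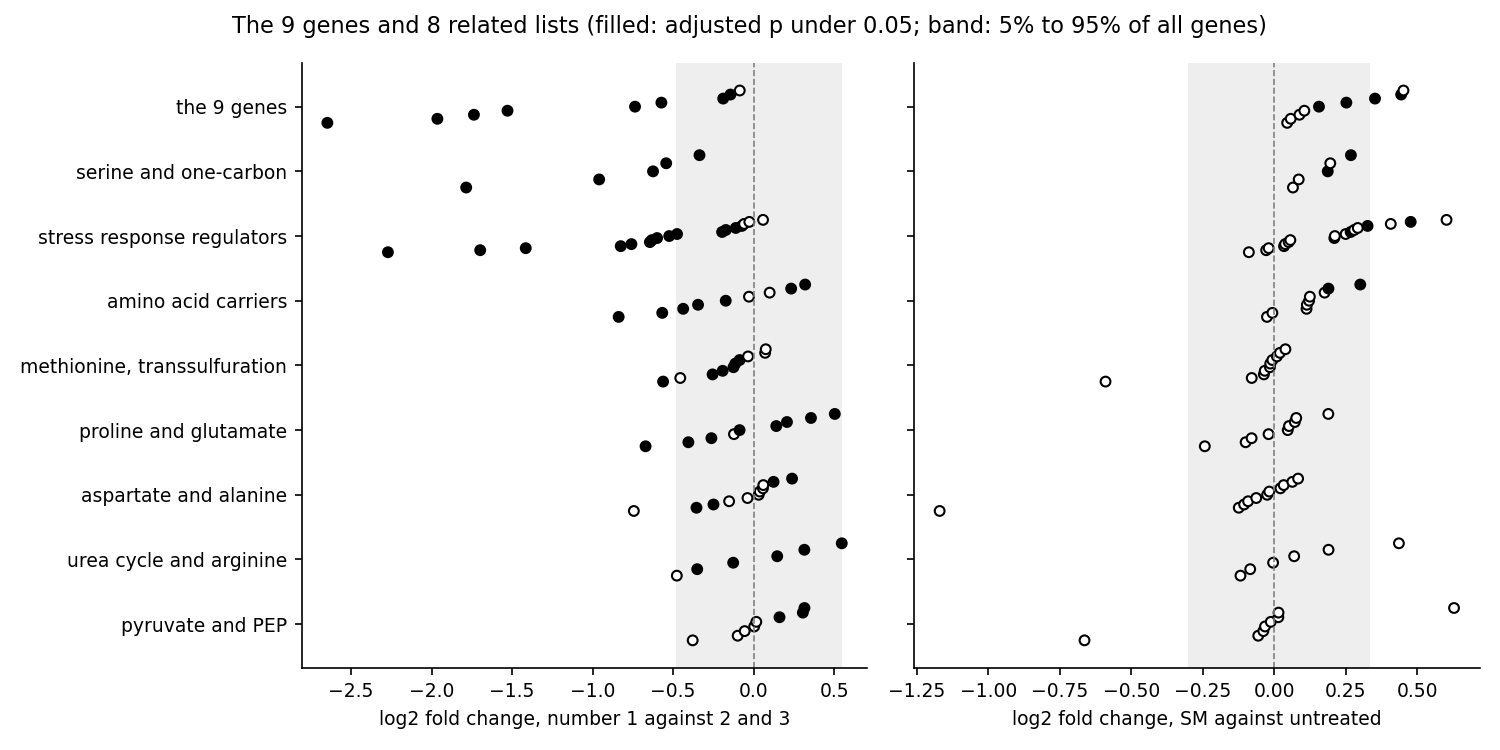
Log2 fold changes of the 9 genes and of the tested members of 8 related lists, for number 1 against 2 and 3 (left) and SM against untreated (right). Each point is a gene, filled where the adjusted p was under 0.05, and the grey band spans 5% to 95% of all genes tested. On the left 6 of the 9 genes lie below the band, whose lower edge is -0.48.

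The genes whose profile over the 9 libraries was most like that of ASNS were SLC1A4, PHGDH, ADM2, DDIT4 and GPX8, out of 10287 other genes of at least 5 CPM. Likeness was the root mean square difference of centred log2 CPM, which was 0.13, 0.14, 0.15, 0.17 and 0.20 for these 5, against a median of 0.83. SLC1A4 carries neutral amino acids such as serine and alanine, ADM2 is a secreted peptide, and DDIT4 restrains mTORC1. The mean profile of the 9 genes was most like those of KIF21B, DOC2B, PSAT1, CST7 and SLC43A1, at 0.06, 0.065, 0.076, 0.077 and 0.095, against a median of 0.50. PSAT1 follows PHGDH in serine synthesis and SLC43A1 carries large neutral amino acids. The difference between number 1 and the other libraries dominates these profiles, so likeness ranks the genes mainly by its size.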

How the data were processed

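Per the submitters' processing notes, the tools were TopHat2 2.1.1 and featureCounts 2.0.0, beside bcl2fastq 2.20.0.422, MultiQC 1.10.1, DESeq2 1.26.0, FastQC 0.11.9 and cutadapt 3.4, with build hg38. RNA was extracted with TRIzol and libraries made with a NuGEN mRNA kit, per the labels' protocols. The tests used the authors' deposited raw counts, whole numbers of reads for each gene with no normalization. Strand, multi-mapping and annotation settings were not given in the sources used here.

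Counts were analysed with edgeR 4.0.16 in R 4.3.3. Genes were kept by filterByExpr (minimum count 10, total 15), and libraries scaled by TMM (factors 0.981 to 1.02). A robust quasi-likelihood fit of all 9 libraries held treatment and replicate number, which the rule for these genes asked for. Tests were two-sided F tests with Benjamini-Hochberg adjustment over all genes at 0.05. The p-values of this fit measure the spread left between these libraries once treatment and replicate number are fitted, not the spread between numbers. Pair differences used log2 CPM with a prior count of 2. Exon lengths came from GENCODE 29, other coordinates from RefSeq GRCh38.p14.

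Same-numbered libraries of different groups deviated together from their group means (correlations over genes 0.227 to 0.582, against -0.404 to 0.161 for other numbers), so the numbers were taken to pair them. All the negative correlations involved a library numbered 1. Among libraries numbered 2 and 3 the gap was narrower, 0.227 to 0.342 for the same number against 0.104 to 0.161 for the other. Within groups every pair of libraries differed beyond counting noise (chi-square 6.89 to 36.5 times its degrees of freedom). The 9 genes, lists and tests were chosen with earlier results of these data known. All 9 genes are named whatever their call. Of the lists, only some of the called genes are named, and these need not be the ones with the smallest p. Some genes not called are named as neighbours of the 9, chosen after their values were seen. Some genes of the lists are not reported here by name. The fit was also run on counts simulated from a model of the same kind, which does not test whether that model suits these data. Alternatives were other scalings and filters, DESeq2 1.42.0, limma 3.58.1 voom, no replicate block, no robust estimation, 2 groups alone and leaving out libraries.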

Additional observations from a re-analysis of the deposited data

How the results depend on the processing

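The calls for the 2 SM comparisons rest on the replicate block. With no replicate block the genes called fell from 428 to 3 and the members from 4 to 0 for SM against untreated, and from 606 to 0 and from 4 to 0 for SM against DSM. A fit on all genes with at least 1 count called 701 genes for SM against untreated, and 7 genes and 1 member for DSM against untreated. Fits on the 2 groups compared called 4 genes for DSM against untreated and 394 for SM against DSM.

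With libraries left out, genes called ranged from 149 to 569 and members from 1 to 5 for SM against untreated, from 0 to 1 genes for DSM against untreated, and from 265 to 846 genes and 3 to 6 members for SM against DSM. The cause of these moves was not tested. Signs turned only for values that were not called. With libraries left out, CTH ranged from -0.044 to 0.23 for SM against untreated, from -0.13 to 0.10 for DSM against untreated, from -0.021 to 0.21 for SM against DSM and from -0.16 to 0.027 for number 1 against 2 and 3. For DSM against untreated ASNS ranged from -0.063 to 0.16 and CBS from -0.34 to 0.052. The DSM effect in number 1 minus that in 2 and 3 ranged from -0.24 to 0.10 for ASNS, from -0.040 to 0.0080 for ALDH18A1, from -0.29 to 0.18 for CTH and from -0.023 to 0.046 for GOT1.

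Between numbers, 7 or 8 of the 9 genes were called under every alternative run. The DESeq2 and voom fits of any difference among the numbers, and the number comparisons without the block (the number is the block), were not run, and leaving out a library numbered 1 left an interaction that could not be fitted. Over single genes 833 values kept their call and direction, 24 lost and 7 gained a call, and 15 turned. Low counts limit what can be said of CBS, ASNS and CTH.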
